A study of Rattus norvegicus with 8 samples.

Results

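The genes *Casz1*, *Sbk3*, *Rnf207* and *Fitm1* are known from heart or skeletal muscle, and their signals were compared here between osteoblast-like cells exposed to an Er:YAG laser and cells that were not. They are 4 of 34912 gene names on the array, and all rat probes that carry their names were taken, which gave 6 probes, 3 for *Casz1* and 1 for each of the other genes. The genes were chosen by the irradiated minus non-irradiated differences measured on these same arrays, so those differences are given as a description, without a test. An Er:YAG laser emits infrared light that water absorbs strongly. Newborn Wistar rats (3-5-day old) gave the cells, which were freed from the calvaria, the roof of the skull, by repeated enzyme digestion and precultured without sorting. Irradiated cells received 3.3 J/cm2 over 60 s with the medium removed, non-irradiated control cells received 0 J/cm2, and RNA was collected 6 h later from 4 cultures of each group. Each culture was measured on 1 single-color (Cy3) array, and replicate numbers 1 to 4 pair an irradiated with a non-irradiated culture. For PCR measurements of RNA, the authors irradiated confluent cells and then refilled the dishes at once with a bone-inducing medium. That medium held ascorbic acid, beta-glycerophosphate and dexamethasone, and the medium of the array cultures is not stated separately.

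Median brightness per array, as processed by the scanner software, ranged from 56.2 to 72.6 without and from 56.8 to 84.8 with irradiation. Of 45598 rat probes, 26543 to 29946 were well above background on a non-irradiated array and 28173 to 30490 on an irradiated array, "well above background" being the mark that the scanner software gives to a spot clearly brighter than the local background. The 8 arrays share a slide, on which control arrays took columns 1 and 3 and laser arrays took columns 2 and 4. Effects of the column and of the laser cannot be told apart. The number of arrays limits the precision of every value below.

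Muscle cells are built under the control of transcription factors that switch on contractile, ion channel and metabolic genes, and many proteins first studied in muscle are also made at low levels elsewhere. *Casz1* encodes a zinc finger transcription factor needed for heart development, which can bind the NuRD chromatin remodeling complex. *Sbk3* encodes a kinase of the SH3 domain-binding kinase family and lies beside its relative *Sbk2*. *Rnf207* encodes a RING finger protein that, with HSP70 chaperones, affects the potassium channel encoded by *Kcnh2* and so the repolarization of the heart. *Fitm1* encodes a membrane protein of the endoplasmic reticulum that promotes the formation of lipid droplets in muscle, and its relative *Fitm2* does so in many tissues.

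The 3 *Casz1* probes lie in order on chromosome 5 of the genome build rn4, and they did not behave alike. Probe A_43_P19685 covers chr5:166023484-166023543, probe A_44_P460845 covers chr5:166029182-166029241, and probe A_44_P977216 covers chr5:166031518-166031577, 8034 bases beyond the first of them. The first and second were designed on transcript ENSRNOT00000018000, and the third on the predicted transcript XM_006225624. Their letters are shown because the gene's values differ by probe. No base is in capitals, since no part of a probe is singled out.
A_43_P19685: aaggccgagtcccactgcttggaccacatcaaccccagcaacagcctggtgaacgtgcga
A_44_P460845: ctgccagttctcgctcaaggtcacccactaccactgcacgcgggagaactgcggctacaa
A_44_P977216: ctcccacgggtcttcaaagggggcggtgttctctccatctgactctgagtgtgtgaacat
Each is 60 bases long. G or C made up 60.0% of A_43_P19685 and of A_44_P460845, and 55.0% of A_44_P977216. Exon and UTR annotation of this build was not used here, so the part of the transcript that each probe reads is not given.

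Probe A_44_P977216 had log2 signals of 5.89, 6.61, 5.32 and 5.11 in non-irradiated replicates 1, 2, 3 and 4. In irradiated replicates 1, 2, 3 and 4 it had 6.93, 7.43, 6.66 and 6.49. It was well above background on 8 of 8 arrays and higher in the irradiated culture of 4 of 4 pairs, although the groups overlapped, because non-irradiated replicate 2 lay above irradiated replicate 4. The group means were 5.73 ± 0.67 (SD, n = 4) without irradiation and 6.88 ± 0.41 (SD, n = 4) with it. The pairs differed by 1.04, 0.82, 1.34 and 1.39 on the log2 scale, a mean of 1.15 ± 0.27 (SD, n = 4 pairs) or 2.22-fold. Replicate 2 was the highest and replicate 4 the lowest in both groups, so both ends of the order were the same in both groups.

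Probe A_43_P19685 gave a different picture of the same gene. Its log2 signals were 5.65, 5.76, 5.17 and 5.40 in non-irradiated replicates 1 to 4. They were 5.65, 5.62, 5.25 and 5.59 in irradiated replicates 1 to 4. It was also well above background on 8 of 8 arrays, and the groups overlapped almost entirely. The mean difference was 0.03 ± 0.15 (SD, n = 4 pairs), with 2 of 4 pairs higher after irradiation, which is smaller than the spread between pairs. The change of A_44_P977216 exceeded that of A_43_P19685 by 1.04, 0.97, 1.26 and 1.19 in pairs 1 to 4, a mean excess of 1.11 ± 0.13 (SD, n = 4 pairs). This excess is a description too, since A_44_P977216 was singled out by its own difference, which favored a large excess. It does not show that one of the targets stayed the same.

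Probe A_44_P460845 lies between the others and was dim. Its log2 signals were 4.46, 4.42, 3.15 and 4.18 in non-irradiated replicates 1 to 4 and 4.09, 3.95, 3.88 and 4.21 in irradiated replicates 1 to 4. It was well above background on 2 of 4 non-irradiated and 3 of 4 irradiated arrays, so it did not pass the filter on dim probes, and it was higher in 2 of 4 pairs. The mean difference was -0.02 ± 0.55 (SD, n = 4 pairs), a spread wide enough to hold changes of either sign. The higher *Casz1* signal after irradiation was thus seen with A_44_P977216 and not with the other probes of the gene.

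**Figure D1:**
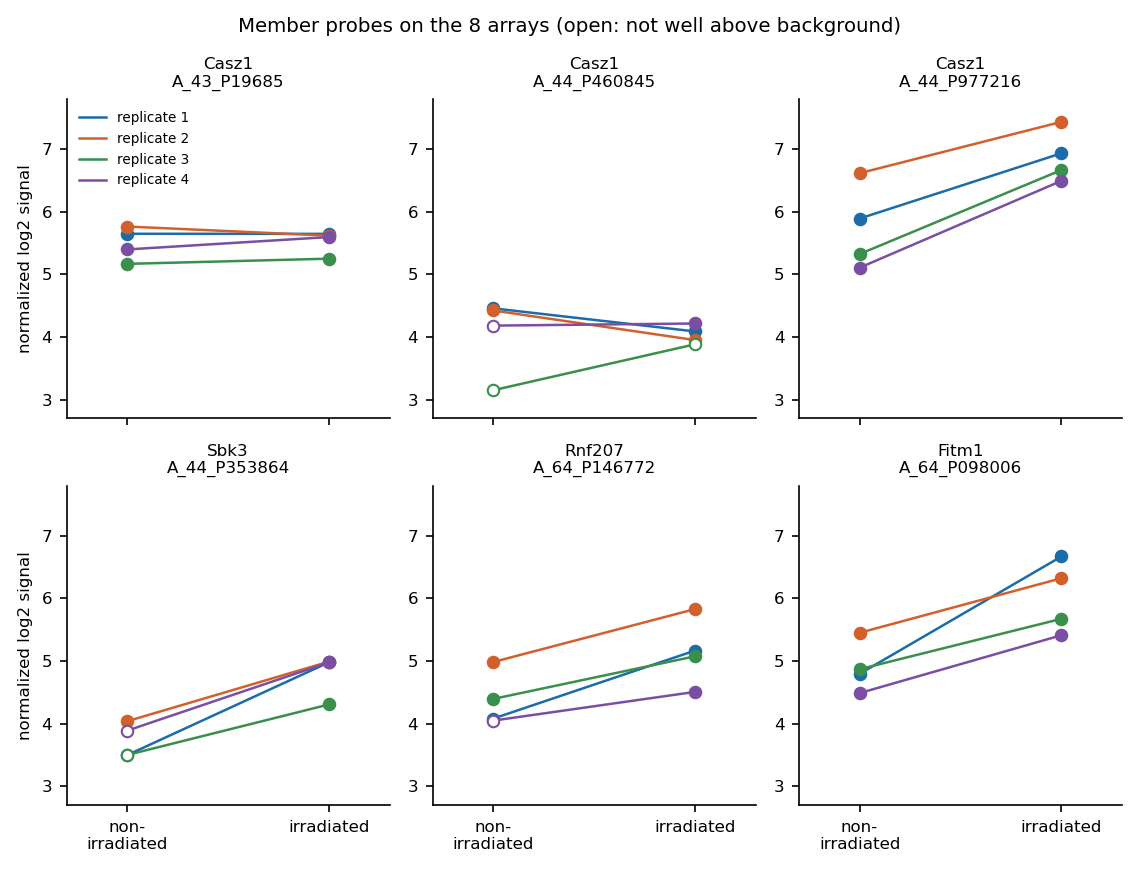
Normalized log2 signal (vertical axis) of the 6 probes in non-irradiated and irradiated cells (horizontal axis), with a line for each replicate number and open points where the probe was not well above background. The irradiated point is the higher in 4 of 4 pairs for *Casz1* A_44_P977216, *Sbk3*, *Rnf207* and *Fitm1*, and in 2 of 4 pairs for the other *Casz1* probes.

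*Fitm1* was measured by probe A_64_P098006, at chr15:33709832-33709891 of rn4, designed on transcript NM_001106037. Its log2 signals were 4.79, 5.45, 4.87 and 4.49 in non-irradiated replicates 1 to 4. In irradiated replicates 1 to 4 they were 6.67, 6.32, 5.67 and 5.41. It was marked well above background on 8 of 8 arrays and was higher in 4 of 4 pairs, and the groups overlapped by little, irradiated replicate 4 lying just under non-irradiated replicate 2. Means were 4.90 ± 0.40 (SD, n = 4) and 6.02 ± 0.58 (SD, n = 4), and the pairs differed by 1.87, 0.87, 0.80 and 0.92. The mean of 1.12 ± 0.51 (SD, n = 4 pairs), or 2.17-fold, thus owed much to pair 1, and without that pair it was 0.87.

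*Sbk3* was measured by probe A_44_P353864, at chr1:67609427-67609486 of rn4, designed on transcript ENSRNOT00000066307. In non-irradiated replicates 1 to 4 its log2 signals were 3.50, 4.04, 3.50 and 3.89. In irradiated replicates 1 to 4 they were 4.98, 4.99, 4.31 and 4.98. The groups did not overlap, but the signal was well above background on only 1 of 4 non-irradiated arrays, replicate 2, against 4 of 4 irradiated arrays. The mean difference of 1.08 ± 0.29 (SD, n = 4 pairs), or 2.12-fold, therefore sets measured signals against signals that were mostly not told apart from background, and the probe passed the filter on dim probes only through the group in which it was high. On the irradiated arrays, where it was measured throughout, the lowest signal of any probe well above background was between 3.30 and 3.73, so *Sbk3* was also dim there.

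*Rnf207* was measured by probe A_64_P146772, on the minus strand at chr5:169542234-169542293 of rn4, designed on transcript ENSRNOT00000046552. Its log2 signals were 4.08, 4.98, 4.39 and 4.05 in non-irradiated replicates 1 to 4. They were 5.17, 5.83, 5.07 and 4.51 in irradiated replicates 1 to 4. The signal was well above background on 3 of 4 non-irradiated and 4 of 4 irradiated arrays and, like *Sbk3*, passed the filter through the irradiated group only. Pairs differed by 1.09, 0.85, 0.68 and 0.46, a mean of 0.77 ± 0.26 (SD, n = 4 pairs) or 1.70-fold, while the groups overlapped, non-irradiated replicate 2 being above irradiated replicate 4. *Rnf207* shares chromosome 5 with *Casz1*, and its probe lies 3.51 Mb from A_44_P977216.

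Of the 6 probes, 5 passed the filter on dim probes, and 4 of these 5 were higher in 4 of 4 pairs, against 3.84% of the 26250 tested probes that had no missing value. For 1 of the 5, *Sbk3*, every irradiated array was above every non-irradiated array, where 0.293% of those 26250 probes were so. Nothing is read from these shares, since the genes were chosen by the same differences. The order of cultures within a group is a description too, since the differences that chose the genes are made of these same values. Among non-irradiated cultures, replicate 2 was the highest for A_44_P977216, *Sbk3*, *Rnf207* and *Fitm1*, and replicate 4 the lowest for each of them but *Sbk3*, where replicates 1 and 3 were lowest, both at 3.50. *Sbk3* in replicates 1, 3 and 4 and *Rnf207* in replicate 4 were not well above background, so their low end is not a measured order. The other *Casz1* probes were lowest in replicate 3, with A_43_P19685 highest in replicate 2 and A_44_P460845 in replicate 1. A_44_P460845 was not well above background in replicates 3 and 4, so its low end is not a measured order either. Non-irradiated replicate 4 was also the array with the fewest probes well above background, 26543, and non-irradiated replicate 2 the one with the most in its group, 29946, and the part of this in the order was not tested.

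**Figure D2:**
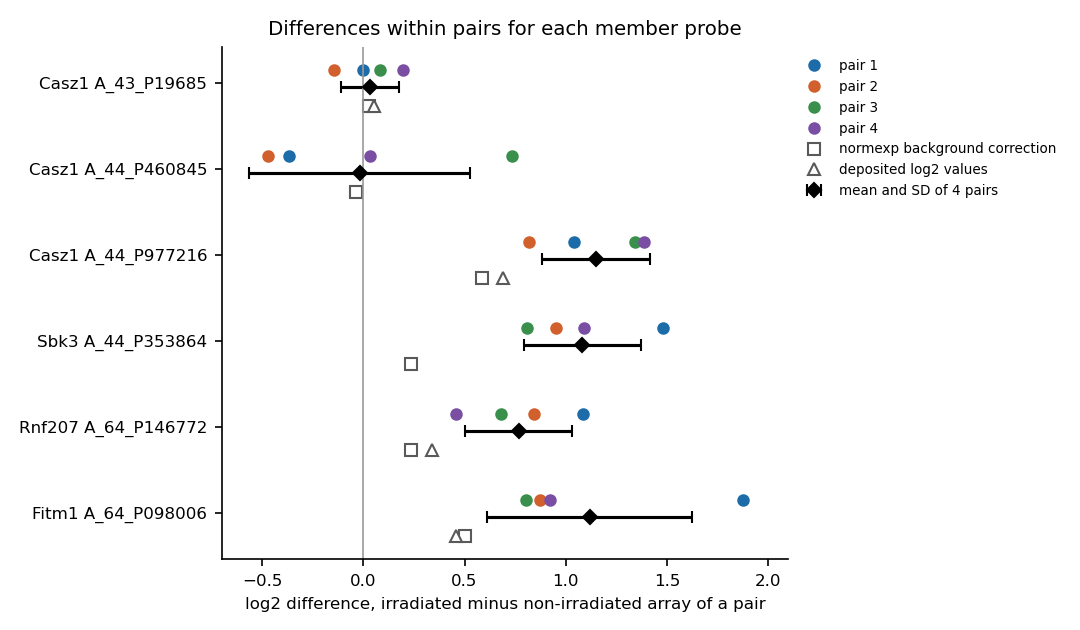
Log2 difference, irradiated minus non-irradiated (horizontal axis), in each of the 4 pairs (colored points) for each probe (vertical axis), with the mean and SD over pairs (diamond and bar) and the mean under normexp background correction (square) and in the deposited log2 values (triangle, where a row exists). The mean of *Casz1* A_44_P977216 is 1.15 from processed signals, 0.59 under normexp and 0.69 in the deposited values, and that of A_43_P19685 lies near 0 in all of them.

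The differences of the 4 probes that were higher in 4 of 4 pairs were smaller under another background correction, and in the deposited values where these had a row. Under normexp background correction with an offset of 50, which compresses differences between dim signals, the mean log2 differences were 0.59 for *Casz1* A_44_P977216, 0.50 for *Fitm1*, 0.24 for *Rnf207* and 0.23 for *Sbk3*, each still above 0 in 4 of 4 pairs. In the log2 values deposited by the authors they were 0.69, 0.46 and 0.34 for A_44_P977216, *Fitm1* and *Rnf207*, again with 4 of 4 pairs higher, and *Sbk3* had no row there. A_43_P19685 stood at 0.03 under normexp and at 0.05 in the deposited row of its name, and A_44_P460845, which shares its transcript name, had no row of its own.

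The regions before the genes' starts were read from RefSeq (build GRCr8), which lists a start for 4 of the 4 genes and a further start for *Rnf207*. They are shown for *Casz1*, *Sbk3* and *Fitm1*, which have 1 listed start each, from 250 bases before to 50 bases after the listed start. Capitals mark E-boxes (CANNTG), the letters that myogenic factors and many other helix-loop-helix proteins bind.
Casz1, chr5:164526862-164527161, plus strand: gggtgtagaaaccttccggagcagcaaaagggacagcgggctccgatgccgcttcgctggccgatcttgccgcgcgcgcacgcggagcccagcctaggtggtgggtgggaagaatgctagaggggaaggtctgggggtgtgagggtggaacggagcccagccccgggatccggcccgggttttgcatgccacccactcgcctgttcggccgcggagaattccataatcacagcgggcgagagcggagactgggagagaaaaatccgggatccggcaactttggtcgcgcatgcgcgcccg
Sbk3, chr1:77895060-77895359, plus strand: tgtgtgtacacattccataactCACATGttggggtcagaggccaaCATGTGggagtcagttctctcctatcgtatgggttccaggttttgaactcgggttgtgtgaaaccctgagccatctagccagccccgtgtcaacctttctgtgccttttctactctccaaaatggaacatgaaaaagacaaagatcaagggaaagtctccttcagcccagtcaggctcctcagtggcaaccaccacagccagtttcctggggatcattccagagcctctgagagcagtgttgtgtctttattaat
Fitm1, chr15:33034455-33034754, plus strand: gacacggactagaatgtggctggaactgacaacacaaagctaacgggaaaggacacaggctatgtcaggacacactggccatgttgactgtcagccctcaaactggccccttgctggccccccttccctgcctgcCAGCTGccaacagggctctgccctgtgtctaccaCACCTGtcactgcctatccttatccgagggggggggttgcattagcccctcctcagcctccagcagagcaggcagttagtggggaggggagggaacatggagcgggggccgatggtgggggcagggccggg
*Fitm1* has E-boxes that begin 115 and 81 bases before the start, and *Sbk3* has E-boxes that begin 228 and 205 bases before it. The *Casz1* region holds none, and neither region of *Rnf207* does, while 72.1% of all 33469 such regions hold at least 1. A GATA box (AGATAA), a CArG box, a MEF2 box, a heat shock element (GAANNTTC) and a GC box (GGGCGG) were looked for on both strands as well, and none of the 5 regions holds any of them. They occur in 11.6%, 1.64%, 3.29%, 8.59% and 33.1% of all regions. A TATA box (TATAAA) occurs in 14.2% of them and in 1 region of *Rnf207*, 244 bases before that start. A match describes the letters only and says nothing of binding, nor does the lack of a match.

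Genes that work with the 4 genes, or resemble them, were taken from 7 lists, whose 81 genes included 58 with a probe that passed the filter. They were tested with limma in a paired fit of all probes. Read from the brightest probe of each gene, none of the 58 was higher at an unadjusted p under 0.05 and 1, *Fbxo32*, was lower, where 1.47% and 1.09% of all 26399 probes were higher and lower. Over all 92 tested probes of these genes, 0 were higher and 4 lower at that threshold, the others being second probes of *Trim55*, *Mta1* and *Myocd*. After Benjamini-Hochberg adjustment over all probes limma called 0% of the 26399 probes, and the smallest adjusted p was 1, while 676 probes had an unadjusted p under 0.05. So none of the genes below passed the test, and their values are given as measured. The 676 probes are fewer than evenly spread p-values would give under 0.05, and the reason was not tested. The lack of a call therefore does not show that a gene stayed the same.

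In the list of related genes, 5 of 7 were tested. Their median log2 difference was -0.04, against 0.0016 for all probes, and from -0.03 to 0.06 when a replicate was left out. *Fitm2*, which like *Fitm1* promotes lipid droplets, had a log2 signal of 11.84 ± 0.10 (SD, n = 4) without and 11.88 ± 0.14 (SD, n = 4) with irradiation, a difference of 0.05 with a standard error (SE) of 0.11, while its second probe differed by -0.17 (SE 0.25). *Sbk1*, the kinase related to *Sbk3*, differed by -0.11 (SE 0.27) with its brighter probe and by 0.06 (SE 0.15) with another, and *Sbk2* was not well above background on any array. Of the muscle RING finger genes, *Trim54* differed by 0.24 (SE 0.14) and *Trim55* by -0.04 (SE 0.14), while *Trim63* was not well above background on any array. A second *Trim55* probe differed by -0.77 (SE 0.23), at an unadjusted p under 0.05, and disagreed with the brighter probe used. The list also held *Fbxo32*, a ubiquitin ligase known from muscle wasting, which is not of the family of any of the 4 genes. *Fbxo32* was at an unadjusted p under 0.05 with its brighter probe. It stood at 6.08 ± 0.63 (SD, n = 4) without and at 5.58 ± 0.69 (SD, n = 4) with irradiation on the log2 scale, lower in 4 of 4 pairs, with a mean difference of -0.49 (SE 0.17). Its limma adjusted p was 1, and between 0.866 and 1 over the alternatives, all with a difference below 0. The difference shrank to -0.32 without replicate 2, to -0.23 under normexp and to -0.26 in the deposited values. The unadjusted p was above 0.05 in the deposited values, without replicate 4, with no block and with a random block. Its second probe had a difference of -0.36 (SE 0.19).

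Around *Casz1*, the heart transcription factors had 7 of 13 genes tested, 3 with a difference above 0 and 4 below, and a median of -0.08. The highest was *Hand1*, at 0.05 (SE 0.16), and the lowest *Gata6*, at -0.39 (SE 0.25), which was between -0.67 and -0.20 when a pair was left out. *Myocd*, a cofactor for genes of heart and smooth muscle, differed by -0.27 (SE 0.15). It was lower in 4 of 4 pairs, with every irradiated array below every non-irradiated array. The share of all probes that were lower in this way was not counted, so nothing is read from it. The pairs of *Myocd* differed by -0.0067, -0.69, -0.15 and -0.21, so the mean owed much to pair 2. Its second probe differed by -0.38 (SE 0.14), at an unadjusted p under 0.05. *Gata4* and *Tbx20*, both central to the heart, were not well above background on any array, and *Nkx2-5* and *Tbx5* were so on 2 arrays at most. The NuRD complex, by contrast, was measured nearly in full, with 11 of 13 genes tested and a median of -0.0039, from -0.12 for *Rbbp4* (SE 0.11) to 0.08 for *Mta3* (SE 0.14), whose second probe stood at -0.09 (SE 0.13). Of *Mta1*, the brighter probe differed by -0.0039 (SE 0.12) and a second probe by -0.60 (SE 0.22), at an unadjusted p under 0.05.

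Around *Rnf207*, *Kcnh2* itself was not well above background on any array. Of the genes of cardiac excitability, 9 of 12 were tested, with a median of 0.02, or -0.07 to 0.09 when a replicate was left out. *Kcne2*, a potassium channel subunit, was the highest at 0.27 (SE 0.13) and higher in 4 of 4 pairs, though its second probe stood at -0.04 (SE 0.19), and *Gja5*, a gap junction gene, was the lowest at -0.23 (SE 0.13). Of HSP70 genes and their partners, 3 of 5 were tested, with *Hspa1a* at 0.20 (SE 0.15), or 0.11 to 0.35 when a pair was left out, and *Dnajb1* at -0.14 (SE 0.17).

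Around *Fitm1*, 18 of 22 lipid droplet genes were tested, 8 with a difference above 0 and 10 below, with a median of -0.01. *Agpat2*, an enzyme of triglyceride synthesis, had the highest difference, 0.47 (SE 0.25), in 3 of 4 pairs. It was well above background on 3 of 4 non-irradiated and 4 of 4 irradiated arrays, so it passed the filter only through the group in which it was high, and without pair 1 the difference was 0.18. *G0s2*, an inhibitor of lipolysis, had the lowest, -0.16 (SE 0.20), yet was higher in 3 of 4 pairs, and without pair 1 its difference was 0.08. The droplet coat genes *Plin2* and *Plin3* differed by -0.04 (SE 0.23) and -0.0040 (SE 0.13), with 0.0096 (SE 0.25) for a second *Plin3* probe, and *Plin1* and *Plin5*, the coats of fat and of muscle cells, were not well above background on any array. Of the myogenic regulators, 7 of 11 were tested, 2 above 0 and 5 below, with a median of -0.09. *Myf5* was the highest at 0.18 (SE 0.13), or 0.11 to 0.27 when a pair was left out, and *Myog* the lowest at -0.20 (SE 0.18), or -0.37 to -0.04, and *Myod1* was well above background on 4 of 8 arrays. Of the 14 genes highest or lowest in the 7 lists, 14 had a difference that moved by more than 1.5 times when some pair was left out, and for 4 of them, *G0s2*, *Hand1*, *Mta3* and *Dnajb1*, its sign turned. Of the 7 list medians, 5 turned sign when some replicate was left out, and only those of the heart transcription factors and the myogenic regulators stayed below 0 in each of these. With no filter on dim probes the median of the heart transcription factors was 0.0073.

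**Figure D3:**
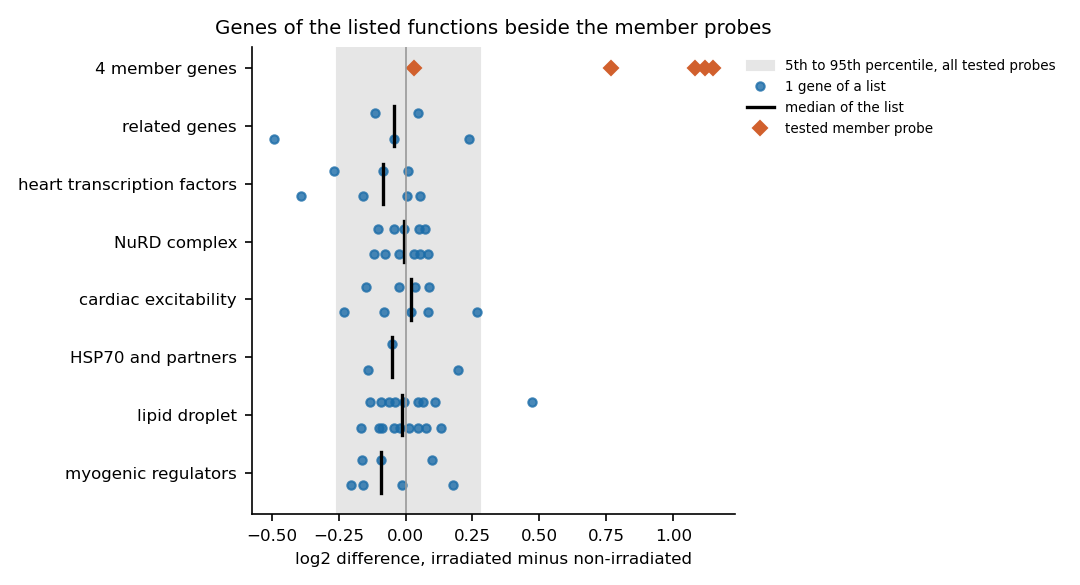
Log2 difference, irradiated minus non-irradiated (horizontal axis), of each tested gene (points) of the 7 lists (vertical axis) with the list medians (black lines), beside the 5 tested probes of the 4 genes (diamonds), which were chosen by this difference. The gray band spans the 5th to 95th percentile of all tested probes, -0.26 to 0.28, and all list medians lie between -0.09 and 0.02.

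The chromosomal neighbors of the 4 genes were taken from the order of protein-coding genes in the RefSeq table (GRCr8), 2 on each side. None of those tested passed the test, *Fiz1*, *Hes3* and *Sbk2* did not pass the filter, and *C5h1orf127* has no probe of that name. Beside *Casz1*, *Pex14* differed by 0.06 (SE 0.13), *Dffa* by 0.05 (SE 0.11) and *Tardbp* by -0.0010 (SE 0.14). Beside *Sbk3*, *Zfp579* differed by 0.22 (SE 0.13), higher in 4 of 4 pairs, and *Ssc5d* by 0.01 (SE 0.12). Beside *Rnf207*, *Icmt*, *Rpl22* and *Chd5* differed by -0.04 (SE 0.11), 0.02 (SE 0.12) and 0.02 (SE 0.16). Beside *Fitm1*, the neighbors *Dcaf11*, *Psme1*, *Pck2* and *Emc9* lay between -0.16 and 0.07.

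The cells were also checked against markers of bone and of muscle. A gene counted as well above background on an array when any of its probes was. For scale, 24379 of the 45598 rat probes were well above background on all 8 arrays and fitted. All 12 osteoblast markers, from *Runx2* and *Sp7* to *Bglap*, were well above background on 8 of 8 arrays, with *Col1a1* the brightest. Of 10 skeletal muscle markers, 8 were well above background on all arrays, *Myod1* was so on 4, and *Pax7*, the marker of satellite cells, on none. The brightest was *Myh3*, the embryonic myosin, on 4 of 8 arrays, those of replicates 1 and 2, and *Tnni2* on 3 and *Myf5* on 1 of the others. Summed signals of this list were 3225, 1147, 724 and 641 in non-irradiated replicates 1 to 4 and 2577, 1296, 789 and 665 in irradiated replicates 1 to 4. These sums differed far more between replicate numbers than between groups, but not all genes of the list did so alike. Among non-irradiated arrays the SD of log2 signals was 2.14 for *Myh3*, which gave 35.0% of the sum on average. It was 0.86 for *Ckm*, 0.72 for *Myog*, 0.49 for *Tnnt3* and 0.48 for *Tnni2*, but 0.10 for *Myf5*, 0.22 for *Des* and 0.24 for *Acta1*. Of 11 cardiomyocyte markers, 2 were well above background on all arrays, *Actc1* and *Tnnt2*, and *Myh7* and *Nppa* were so on none. Their summed signals were 4640, 3118, 1709 and 1929 in non-irradiated replicates 1 to 4 and 4049, 3031, 2096 and 2067 in irradiated replicates 1 to 4.

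The mean log2 ratio of irradiated over non-irradiated sums was 0.01 ± 0.23 (SD, n = 4 pairs) for skeletal muscle and 0.04 ± 0.21 (SD, n = 4 pairs) for cardiomyocyte markers, both smaller than their spread. Smooth muscle markers, 6 of 8 on all arrays and led by *Acta2*, had a ratio of -0.01 ± 0.03 (SD, n = 4 pairs). Skeletal muscle marker sums were highest in replicate 1 and lowest in replicate 4 in both groups. Endothelial marker sums were highest in replicate 2 and lowest in replicate 4 in both groups, as A_44_P977216 was. Smooth muscle and adipocyte marker sums were lowest in replicate 4 in both groups too. Replicate 2 also had the most and replicate 4 the fewest probes well above background in both groups, so nothing is read from this match. *Rnf207* was highest in replicate 2 in both groups. Its low end without irradiation is not a measured order, since it was not well above background in replicate 4. *Vwf* alone gave 82.4% of the endothelial sums on average, so the order of these sums is mostly that of 1 gene. Likewise *Actc1* gave 79.5% of the cardiomyocyte sums on average. *Fitm1* was highest in replicate 2 among non-irradiated and in replicate 1 among irradiated cultures, and *Sbk3* was highest in replicate 2 in both groups. In such bulk samples more cells of a type and more RNA per cell cannot be told apart, and the part of either in the signals of the 4 genes was not tested.

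**Figure D4:**
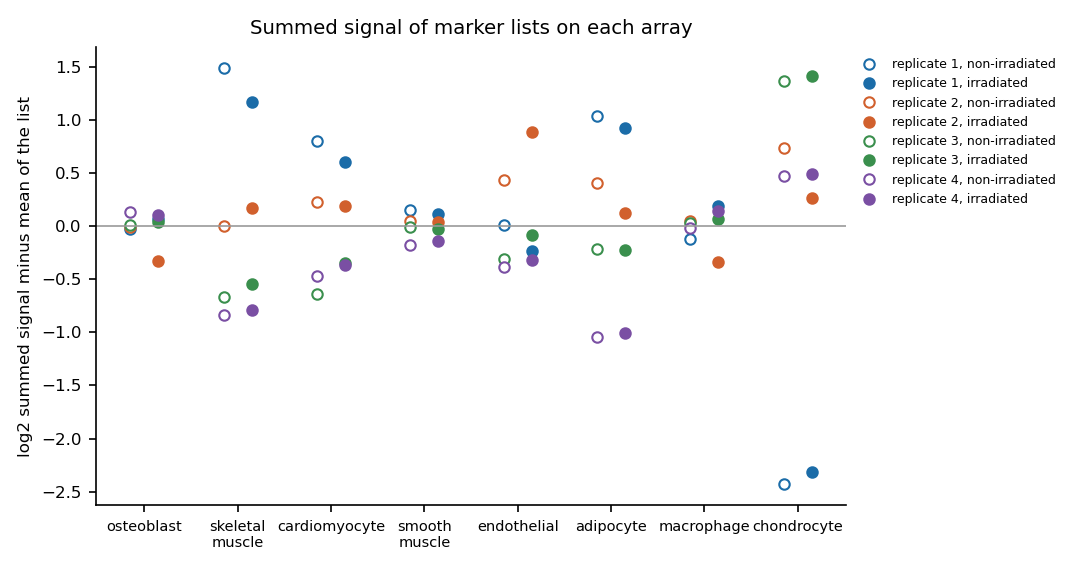
Log2 of the summed signal of each marker list on each array, minus the mean of that list over the 8 arrays (vertical axis), for 8 lists (horizontal axis), with open points for non-irradiated and filled points for irradiated cells and a color for each replicate number. For skeletal muscle, cardiomyocyte and adipocyte markers replicate 1 is the highest in both groups, and for chondrocyte markers it is the lowest in both.

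The probes of other named genes most like each tested probe were found by Pearson correlation of log2 signals over the 8 arrays among 17736 probes, as a description over arrays that share pairs and a slide. These correlations include the difference between groups by which the 4 genes were chosen, and those of *Sbk3* and *Rnf207* include 3 arrays and 1 array on which the probe was not well above background. The closest to *Casz1* A_44_P977216 were *Acr* (r = 0.961), *Gipr* (0.941) and *Slc47a1* (0.938). Those closest to A_43_P19685 were *Cd22* (0.961), *Cd226* (0.938) and *Akr1b10* (0.929). For *Sbk3* they were *Slc10a5* (0.953), *Pdzd7* (0.952) and *Mafa* (0.919), for *Rnf207* they were *Tob2* (0.940), *Lsamp* (0.931) and *Gtf2f1* (0.925), and for *Fitm1* they were *Pdcd6* (0.926), *Efna5* (0.912) and *Cend1* (0.910). Of these 15 probes, 0 belong to a gene of the lists or marker lists above. The share of such genes among the 17736 probes was not counted, so nothing is read from this 0.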

How the data were processed

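Spot intensities were deposited by the authors as extracted by Agilent Feature Extraction 11.0.1.1, with processed signals already corrected for background. The authors also deposited log2 values in 24029 rows, whose column medians were between 7.62 and 7.66 and whose background correction is not given in the sources used here. After log2 transformation, the processed signals of 58717 rat spots were quantile normalized, without spots marked as outlying. To be tested, a probe had to be well above background (more than 50% of its spots) on each of the 4 arrays of a group, which 26404 probes were, 26399 of them fitted. The groups were compared, two-sided, with lmFit and eBayes of limma 3.58.1 (R 4.3.3), in a model with replicate number as block, and p-values were adjusted by Benjamini-Hochberg. SE is that of this fit. The code was checked on simulated data, whose noise was set and not taken from these arrays. That check does not show how many real changes the fit would miss here. Same-numbered arrays bear the same animal number in the scanner output, and their deviations from group means correlated at 0.608, 0.0553, 0.570 and 0.749 for numbers 1 to 4, across probes, which are not independent. Some unmatched arrays exceeded pair 2, such as non-irradiated 1 with irradiated 2 at 0.437 and non-irradiated 2 with irradiated 3 at 0.302. A list gene was read from its brightest tested probe. Named genes are every related gene, those at an unadjusted p under 0.05 and the highest and lowest of each list, 2 neighbors on each side and the 3 most correlated probes, and other genes were named after their values were seen. Members and lists were chosen with earlier results of these data known.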

Additional observations from a re-analysis of the deposited data

Results flagged for a closer look

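In groups of 4 arrays, an array was looked at again when its gap to the nearest of the others, divided by the range of the group, exceeded Dixon's critical value for 4 samples, which chance alone gives in about 1 of 20 groups. Of 70 groups looked at, 2 had such an array, or 2.86%. *Sbk3* had a log2 signal of 4.31 in irradiated replicate 3, against 4.98 to 4.99 on the other irradiated arrays. *Casz1* A_43_P19685 had 5.25 in irradiated replicate 3, against 5.59 to 5.65 on the others. Both come from the same array, on which 28275 probes were well above background, a number between those of the other irradiated arrays.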

How the results depend on the processing

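The differences of *Casz1* A_44_P977216, *Sbk3*, *Rnf207* and *Fitm1* were above 0 in every alternative run on them, and of the 193 values that an alternative could move (a block or a variance prior cannot move a mean difference), 154 moved by less than 1 SD or, for counts, by less than 1.5 times. Normexp background correction gave log2 differences of 0.59, 0.23, 0.24 and 0.50 for these 4 probes, and the deposited log2 values gave 0.69 for A_44_P977216, 0.34 for *Rnf207* and 0.46 for *Fitm1*. Signal over background limits these values, *Sbk3* and *Rnf207* not being well above background on every array. Against 676 probes at an unadjusted p under 0.05 and 106 under 0.01, there were 250 and 23 under normexp, 292 and 33 in the deposited values, 1663 and 305 with no filter on dim probes, 449 and 61 among probes well above background on all 8 arrays, and 380 and 43 with a trend and robust variance prior. With no replicate block there were 251 and 32, and the count of list genes went from 1 to 0. Leaving out each replicate in turn gave from 389 (without replicate 3) to 1404 (without replicate 2) probes under 0.05, from 50 to 233 under 0.01, from 0 to 3 list genes under 0.05, and a lipid droplet median from -0.0432 to 0.0393. With limma, 0 probes had an adjusted p under 0.05 in any of the other alternatives. Without normalization between arrays, an alternative chosen after seeing the data, there was 1, *Cxcl3*, and the lipid droplet median was -0.0632. The count of list genes under 0.05 was 2 with scaling to the 75th percentile, with no filter and when a gene's probes were averaged, and 0 in the deposited values and with a random block. The cause of these moves was not tested. A block for the slide was not run, since there was only 1.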

Other observations

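Among markers of other cell types that a calvarial digest can hold, the summed signals of those of chondrocytes, the cells of cartilage, differed more between replicate numbers than between groups. Of 6 chondrocyte markers, 4 were well above background on all arrays, with *Col2a1*, the collagen of cartilage, the brightest on 6 of 8 arrays and on average 59.6% of the sum, and *Comp* the brightest on those of replicate 1. Among non-irradiated arrays the SD of log2 signals was 2.80 for *Col2a1*, but 0.27 for *Sox9* and 0.57 for *Matn1*. Their summed signals were 5913, 53204, 81964 and 44176 in non-irradiated replicates 1 to 4, and 6408, 38314, 84699 and 44687 in irradiated replicates 1 to 4. Replicate 1 was thus by far the lowest in both groups.

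Of 8 endothelial markers, 6 were well above background on all arrays, with *Vwf* the brightest, on average 82.4% of the sum, and *Tie1* and *Emcn* so on none, and the log2 ratio of irradiated over non-irradiated sums was 0.13 ± 0.29 (SD, n = 4 pairs). Of 8 macrophage markers, 4 were so on all arrays, with *Cd14* the brightest, on average 73.3% of the sum, *Cd163* on none and *Ptprc* on 1, and the ratio was 0.03 ± 0.30 (SD, n = 4 pairs). Of 6 adipocyte markers, only *Pparg*, on average 84.4% of the sum, was so on all arrays, *Plin1* and *Lep* on none, and the ratio was -0.09 ± 0.14 (SD, n = 4 pairs). The ratio for chondrocyte markers was -0.07 ± 0.27 (SD, n = 4 pairs), and for osteoblast markers -0.06 ± 0.19 (SD, n = 4 pairs).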
